A study of Homo sapiens with 66 samples.

Results

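NeuDet-D3 was compared with NeuDet-D2, cells on the third and the second day of neural determination, the culture step in which H9 human embryonic stem cells that have become neuromesodermal progenitors (hNMPs) are turned into spinal cord neural progenitor cells (hSCNPCs). The comparison takes 6 of the 66 libraries of the series, the 3 labelled NeuDet-D3 against the 3 labelled NeuDet-D2, and it was read across all genes of the count table. H9 is an established human embryonic stem cell line. All 6 libraries carry the genotype label WT, the same line and the treatment label for neural differentiation, so that the day is the only labelled difference between the groups. On both days the cells were in the same NeuDet medium, which holds the inhibitors SB431542 and Dorsomorphin (against TGF-beta and BMP receptors), FGF2, FGF8, CHIR99021 (an inhibitor of GSK3, which activates Wnt signalling) and Compound E (an inhibitor of gamma-secretase, which blocks Notch). The hNMPs had been replated as single cells at the start of the step. The medium was changed daily, and nothing in the labels ties the 3 libraries of a day to separate cultures, so that p-values measure the spread between libraries only, which may be technical.

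Neuromesodermal progenitors are the cells at the tail end of the embryo that feed both the spinal cord and the paraxial mesoderm. They are held in that state by Wnt and FGF signals, and they read out their position along the body by opening the HOX clusters in order, from the genes at the 3′ end, used in the hindbrain and neck, to the genes at the 5′ end, used in the trunk and tail. As such cells become neural they keep SOX2, lose TBXT and the remains of the pluripotency network, and give up epithelial genes of the stem cell state. The question a day-by-day comparison addresses is which of these gene groups had moved between successive days.

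The 6 libraries held between 24852173 and 28217862 counts each, 24852173 to 26853223 on D2 and 26932870 to 28217862 on D3. Values are counts per 1000000 (CPM) after scaling of the library sizes, and a gene was called where edgeR's quasi-likelihood test gave an adjusted p under 0.05. Mitochondrially encoded RNA took 4.83 to 5.60% of counts on D2 and 5.31 to 6.86% on D3. Defining markers were checked against the label of differentiating hSCNPCs. Those of the neuromesodermal state (TBXT, NKX1-2, CDX2, SP5) had the largest sum, 1069 to 1150 CPM on D2 and 975 to 1085 CPM on D3. Nearly all of that sum came from CDX2, SP5 and NKX1-2, while TBXT, which defines the state, was low on both days. Those of pluripotency (POU5F1, NANOG) summed to 2.735 to 3.766 CPM on D2 and 0.390 to 0.863 CPM on D3. SOX1, SOX2, PAX6 and NES, markers of neural progenitors, summed to 671 to 711 CPM on D2 and 701 to 758 CPM on D3, but PAX6 alone lay between 0 and 0.185 CPM in every library, so that this marker was practically absent on both days. Markers of presomitic mesoderm (TBX6, MSGN1) summed to 1.2 to 1.37 CPM on D2 and 0.848 to 0.958 CPM on D3, those of neural crest (SOX10, FOXD3) to 1.03 to 1.1 CPM on D2 and 0.503 to 0.565 CPM on D3 and those of neurons (DCX, TUBB3, STMN2, ELAVL3) to 9.87 to 11.1 CPM on D2 and 8.99 to 12.5 CPM on D3. SOX17, TP63 and PECAM1 had too few counts to be tested, and FOXA2, GATA3 and CDH5 were each under 0.5 CPM in all 6 libraries. In RNA from bulk cultures, fewer cells of a type and less RNA per cell cannot be told apart.

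Between D2 and D3, 7704 of 21597 genes tested were called, 35.7% of them, with 3581 (16.6%) higher and 4123 (19.1%) lower on D3. Every count of list members below is to be set beside these shares. Most list members are protein-coding, and of 15250 protein-coding genes tested 6512 were called, a larger share than over all genes. A list can therefore lie above the shares of all genes without standing out among protein-coding genes. Most of these changes were small: the median size of a called log2 fold change was 0.47, and 682 called genes were more than 2-fold higher and 760 more than 2-fold lower. Beyond 4-fold there were 126 higher and 138 lower genes. A test against a change of 1.5-fold (edgeR's glmTreat) left 369 higher and 580 lower genes, 4.39% of those tested (1.71% and 2.69%). Of the 7704 called genes, 7307 had libraries that did not overlap between the days. Lack of overlap in a called gene named below thus adds little to its call. The median log2 fold change over all genes tested was -0.0079. The same test called 24.5% of genes between D1 and D2 (11.2% higher and 13.2% lower on the later day) and 24.4% between D3 and D4 (12.6% higher and 11.8% lower), comparisons that share the D2 or the D3 libraries with this one.

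**Figure D1:**
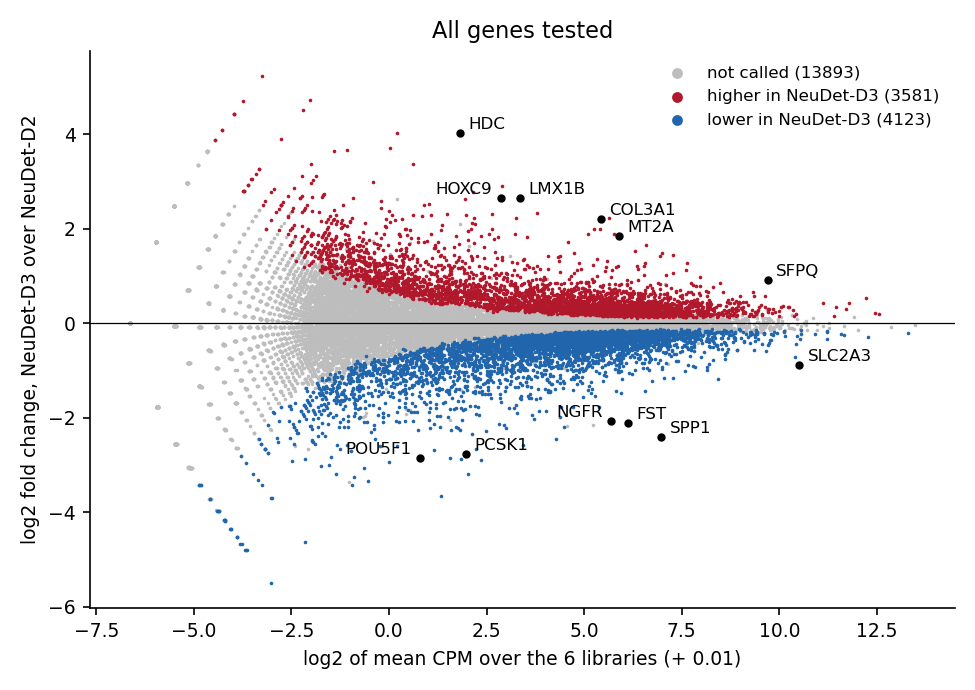
Every gene tested, by the log2 of its mean CPM over the 6 libraries (x axis) and its log2 fold change, NeuDet-D3 over NeuDet-D2 (y axis); red points are the 3581 genes called higher, blue points the 4123 called lower and grey points the rest. HDC stands highest among the named genes, and SPP1, FST, NGFR and SLC2A3 are among the well expressed genes that fell.

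The genes that rose most in these data were an enzyme and a transporter of amine transmitters, a LIM homeodomain factor and a run of HOX genes. They were taken from called protein-coding genes with at least 5 CPM in every D3 library and no overlap between the days. Lack of overlap in them is thus a condition of the choice and adds no support. HDC, histidine decarboxylase, which makes histamine, was at 0.28, 0.407 and 0.513 CPM in the NeuDet-D2 libraries and 6.68, 6.95 and 6.4 CPM in the NeuDet-D3 libraries. All D3 libraries lay far above all D2 libraries (47% of the genes tested had libraries that did not overlap between the days, 22.2% higher and 24.8% lower on D3), a log2 fold change of 4.03 ± 0.20 SE with an edgeR adjusted p = 1.12e-22. SLC18A1, a vesicular monoamine transporter, was at 0.921, 1.63 and 0.843 CPM on D2 and 8.2, 7.95 and 7.19 CPM on D3, a log2 fold change of 2.77 ± 0.19 SE with an edgeR adjusted p = 1.29e-15. LMX1B, a LIM homeodomain transcription factor of the roof plate and of the midbrain and hindbrain, was at 2.4, 2.7 and 3.3 CPM on D2 and 19.6, 16.8 and 16.8 CPM on D3, a log2 fold change of 2.66 ± 0.20 SE with an edgeR adjusted p = 8.97e-15. No D2 library reached any D3 library in either gene, as the choice required. HDC lies at chr15:50241947-50265965 and LMX1B at chr9:126613928-126701032 on hg38, with positions from GENCODE v44.

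COL3A1, a fibrillar collagen, and SLIT3, a secreted ligand of ROBO receptors, were the most strongly expressed genes of this set outside the HOX clusters. COL3A1 stood at 16.1, 16.1 and 14 CPM in the NeuDet-D2 libraries and 73.5, 80.1 and 60.4 CPM in the NeuDet-D3 libraries, and a log2 fold change of 2.21 ± 0.11 SE with an edgeR adjusted p = 8.51e-21. For SLIT3 the values were 15, 17.4 and 18.2 CPM on D2 and 80.3, 70.6 and 50.8 CPM on D3, and the comparison gave a log2 fold change of 1.99 ± 0.15 SE with an edgeR adjusted p = 1.34e-13. The library labelled D3 replicate 3 was the lowest of its group in both, at a level still far above every D2 library. It was also the lowest in HOXC6, HOXC8, HOXA9, PTCH1 and WNT5A, though the highest in MT2A. Over all genes its counts differed most from its group: chi-squared per degree of freedom was 15.059 between D3 replicates 1 and 3, 9.104 between 2 and 3 and 4.985 between 1 and 2. The remaining genes of the set were ADAMTS17, a secreted metalloprotease (4.58 ± 0.747 to 23.1 ± 3.21 CPM, mean ± SD of 3 libraries), ACKR3, a scavenging chemokine receptor (2.09 ± 0.368 to 10.4 ± 1.26 CPM), KISS1R, the kisspeptin receptor (2.49 ± 0.4 to 9.97 ± 0.147 CPM), SGPP2, a sphingosine phosphate phosphatase (1.73 ± 0.358 to 7.52 ± 0.384 CPM), INPP4B, an inositol polyphosphate phosphatase (1.62 ± 0.744 to 7.09 ± 1.83 CPM), the metallothionein MT1F (1.58 ± 0.379 to 7.44 ± 1.41 CPM), HOXC9, HOXC6, HOXC5 and HOXA7.

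Among the genes that fell most were FOXH1, of Nodal signalling, and POU5F1B, a copy of the pluripotency gene POU5F1, together with secreted factors, receptors and membrane proteins. They were chosen by the same rule, with at least 5 CPM in every D2 library and no overlap between the days. FOXH1, the DNA-binding partner of SMAD proteins in Nodal signalling, was at 7.73, 8.21 and 8.32 CPM in the NeuDet-D2 libraries and 1.02, 1.06 and 1.76 CPM in the NeuDet-D3 libraries, a log2 fold change of -2.65 ± 0.16 SE with an edgeR adjusted p = 1.22e-19. POU5F1B, a retrogene copy of POU5F1, was at 13.5, 11.6 and 14.6 CPM on D2 and 2.3, 3.3 and 2.91 CPM on D3, a log2 fold change of -2.22 ± 0.11 SE with an edgeR adjusted p = 5.09e-22. Reads of POU5F1B can be split with its near-identical parent gene, and 39.2% of the exon length of FOXH1 overlaps exons of other genes, so that both values carry that uncertainty. PCSK1, a convertase that cuts prohormones, was at 6.41, 7.25 and 6.74 CPM on D2 and 0.954, 0.71 and 1.33 CPM on D3, a log2 fold change of -2.76 ± 0.17 SE with an edgeR adjusted p = 8.56e-19.

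The most abundant genes of this set were SPP1, FST and NGFR. SPP1, which encodes the secreted phosphoprotein osteopontin, was at 222, 203 and 210.2 CPM in the NeuDet-D2 libraries and 39.2, 39.1 and 41.2 CPM in the NeuDet-D3 libraries, a log2 fold change of -2.41 ± 0.14 SE with an edgeR adjusted p = 5.31e-16. FST, follistatin, a secreted inhibitor of activin, had 125, 107 and 108 CPM on D2 and 25.1, 25.6 and 28.4 CPM on D3, and a log2 fold change of -2.10 ± 0.16 SE with an edgeR adjusted p = 5.86e-13. NGFR, the low-affinity neurotrophin receptor, had 85.7, 81.4 and 84.6 CPM on D2 and 19.6, 20.9 and 19.2 CPM on D3, and a log2 fold change of -2.08 ± 0.076 SE with an edgeR adjusted p = 5.38e-28. In all of these the 3 libraries of a day lay close together, and the choice required that the days did not overlap. ANKRD63 (9.03 ± 0.7 to 1.21 ± 0.366 CPM) fell as well, as did PAPPA, a protease of IGF-binding proteins (33 ± 3.27 to 6.07 ± 0.533 CPM), SCNN1A, a subunit of the epithelial sodium channel (9.22 ± 1.12 to 1.91 ± 0.336 CPM), F2RL1, a protease-activated receptor (36.4 ± 1.62 to 7.97 ± 0.751 CPM), EPHA1, an ephrin receptor (11.5 ± 0.783 to 2.64 ± 0.469 CPM), JADE2, a PHD finger protein (21 ± 1.81 to 5.13 ± 0.685 CPM), CD9, a tetraspanin (33.5 ± 1.35 to 8.45 ± 1.26 CPM), C16orf54 (5.84 ± 0.684 to 1.22 ± 0.282 CPM) and C13orf42 (5.35 ± 0.227 to 1.17 ± 0.214 CPM). Exons of other genes cover 27.2% of the exon length of NGFR and 21.1% of that of PAPPA.

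**Figure D2:**
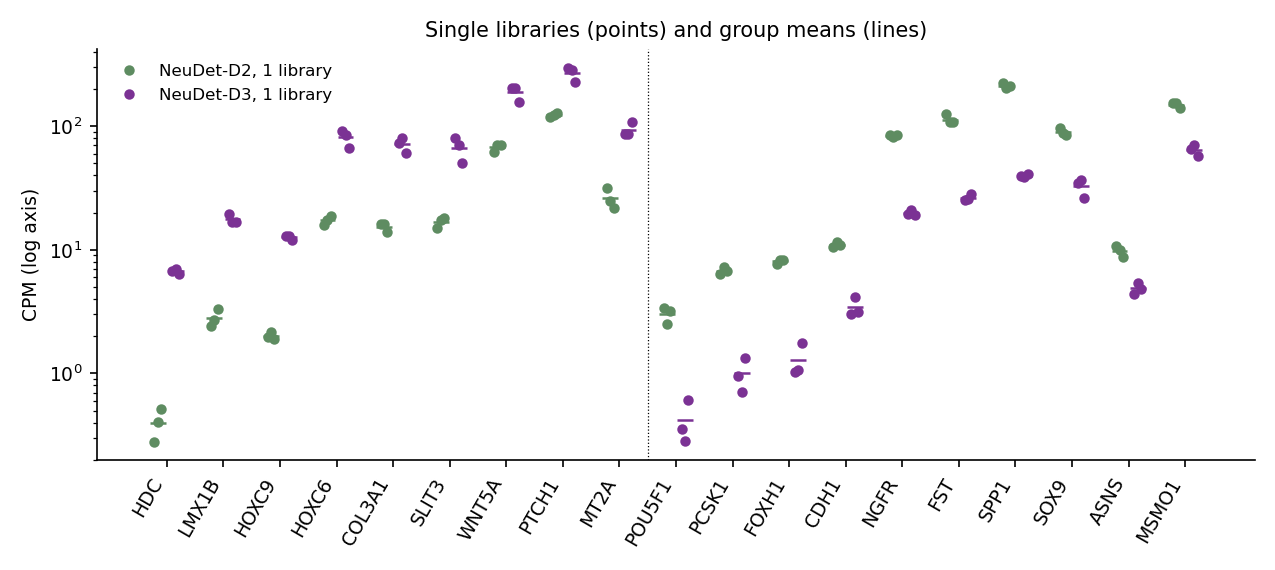
CPM on a log axis for 19 genes; each point is 1 library, green for NeuDet-D2 and purple for NeuDet-D3, and each short line is the mean of 3 libraries. The 9 genes left of the dotted line were higher in every D3 library than in any D2 library, and the 10 genes to its right were lower in every D3 library. For the genes with the largest changes this lack of overlap was a condition of their choice, and most called genes showed it.

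HOX genes of all 4 clusters were higher on D3, with log2 fold changes above 2 in the middle of the HOXA and HOXC clusters. Of 39 HOX genes, 30 had enough counts to be tested, of which 21 rose, 1 fell (HOXB1) and 8 were not called. Their median log2 fold change was 0.85, against -0.0079 over all genes tested. The rise was not limited to this day: 22 of the 30 were called higher from D1 to D2 and 19 from D3 to D4. Of all genes, 11.2% and 12.6% were, in comparisons that share the D2 or the D3 libraries. Tested against those neighbouring steps, 7 HOX genes had a larger change and 3 a smaller one, against 11% and 12.8% of all genes. By cluster, 8 of 9 HOXA, 5 of 9 HOXB, 5 of 7 HOXC and 3 of 5 HOXD genes rose. The medians were 1.12, 0.42, 1.89 and 1.71 in the same order. HOX genes encode homeodomain factors that fix position along the body.

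In the HOXC cluster, which lies on chromosome 12, HOXC9 (chr12:53994895-54003337), a gene of the thoracic level, was at 1.96, 2.14 and 1.91 CPM in the NeuDet-D2 libraries and 12.9, 12.8 and 12.1 CPM in the NeuDet-D3 libraries, a log2 fold change of 2.65 ± 0.13 SE with an edgeR adjusted p = 6.34e-21. HOXC8 was at 24, 21.6 and 23.5 CPM on D2 and 95.2, 85.6 and 74.7 CPM on D3, a log2 fold change of 1.89 ± 0.089 SE with an edgeR adjusted p = 4.07e-20. HOXC6 was at 15.9, 17.6 and 18.8 CPM on D2 and 91.7, 85.6 and 67.2 CPM on D3, a log2 fold change of 2.22 ± 0.096 SE with an edgeR adjusted p = 2.19e-21. Every D3 library was above every D2 library for all of these, which the choice of HOXC9 and HOXC6 required. HOXC4 went from 40.4 ± 3.99 to 117 ± 15.2 CPM and HOXC5 from 1.32 ± 0.468 to 6.51 ± 0.37 CPM. HOXC10, of the lumbar level, was barely detected, with 0.12, 0.0739 and 0.293 CPM on D2 and 0.247, 0.284 and 0.288 CPM on D3, and it was not called (a log2 fold change of 0.72 ± 0.45 SE with an edgeR adjusted p = 0.249).

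In the HOXA cluster the log2 fold changes were 0.78 (HOXA2), 1.12 (HOXA3), 0.59 (HOXA4) and 0.62 (HOXA5), and 1.69 (HOXA6), 2.23 (HOXA7), 2.29 (HOXA9) and 1.64 (HOXA10) further along the cluster. The HOXA4 call was lost without D2 replicate 1, D3 replicate 1 or D3 replicate 2. HOXA7 had 3.77, 3.58 and 2.75 CPM on D2 and 17.9, 14.9 and 14.6 CPM on D3 and HOXA9 had 0.681, 0.407 and 0.476 CPM on D2 and 3.04, 2.55 and 2.05 CPM on D3. In the HOXD cluster, HOXD3, HOXD4 and HOXD8 rose by 1.79, 1.71 and 1.88 on the log2 scale. HOXB genes had smaller log2 fold changes, 0.85 for HOXB3, 0.81 for HOXB4 and 0.42 for HOXB8, and HOXB9 was not called at 771 ± 43 to 834 ± 81.2 CPM. HOXB1, used in the hindbrain, was at 130.4, 124 and 130.3 CPM on D2 and 82.2, 78.4 and 70.7 CPM on D3 (a log2 fold change of -0.73 ± 0.20 SE with an edgeR adjusted p = 0.0047). DESeq2 did not call HOXB1 (adjusted p = 0.166). Part of the exon length of some HOX genes is shared with other genes on either strand (67.3% for HOXC5, 62.5% for HOXA7 and 16.1% for HOXC6). The counting was not stated to use strand. Reads of overlapping transcripts, of the same or the opposite strand, thus cannot be told apart from theirs.

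**Figure D3:**
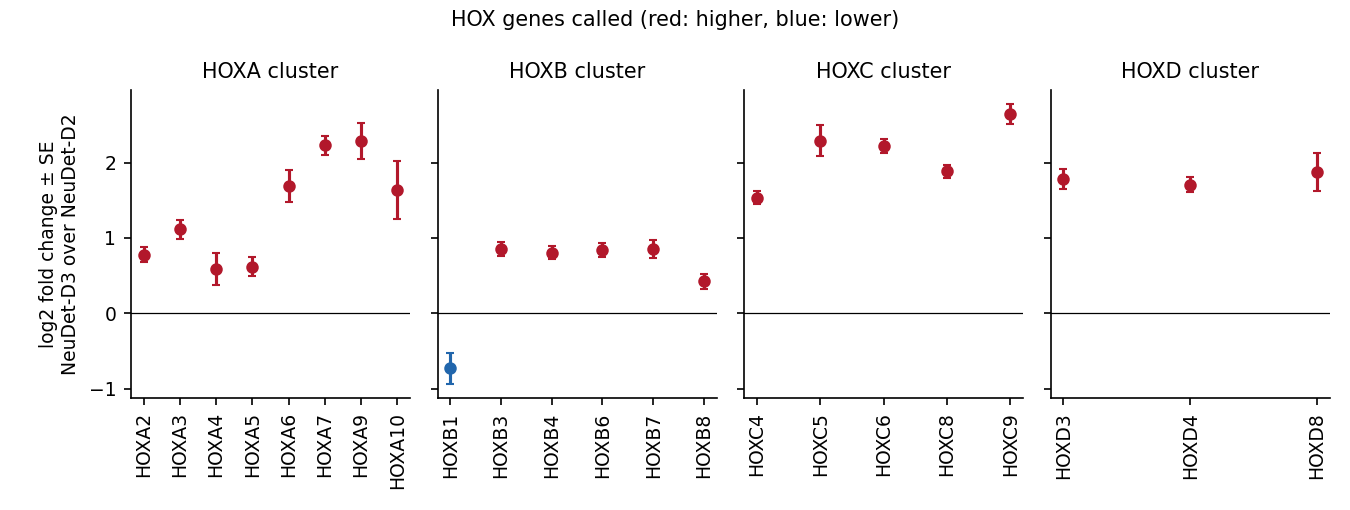
Log2 fold change, NeuDet-D3 over NeuDet-D2, of the 21 HOX genes that rose and the 1 that fell, in the order of their numbers within each cluster; error bars are the SE, and red points are higher and the blue point lower. Genes that were not called are not drawn. The largest values are those of HOXC9, HOXA9, HOXC5, HOXA7 and HOXC6.

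Of the partners of HOX proteins and the CDX genes, which act upstream of the trunk HOX genes, 3 of 13 rose and 3 fell. Over all genes tested, 16.6% rose and 19.1% fell. MEIS1, a HOX cofactor, rose from 3.19 ± 0.643 to 5.32 ± 1.61 CPM. MEIS3, PBX3 and NR6A1, a nuclear receptor of the early embryo, fell by 0.34, 0.35 and 0.30 on the log2 scale. CDX2 was at 433, 408 and 439.5 CPM in the NeuDet-D2 libraries and 567, 505 and 498 CPM in the NeuDet-D3 libraries, and although its D3 libraries were all higher it was not called (a log2 fold change of 0.29 ± 0.21 SE with an edgeR adjusted p = 0.302). It was called higher when the 18 NeuDet libraries, or D2 and D3, were fitted alone.

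Genes of the neuromesodermal state moved in both directions. Of 18 genes tested from that list, 4 rose and 7 fell, against 16.6% and 19.1% of all genes, with a median log2 fold change of -0.21. The count that fell was 4 without D3 replicate 2. NKX1-2, a homeobox gene that marks these progenitors, was at 304, 288 and 292 CPM in the NeuDet-D2 libraries and 229, 218 and 214 CPM in the NeuDet-D3 libraries, a log2 fold change of -0.42 ± 0.11 SE with an edgeR adjusted p = 0.00214. Its D3 libraries were all lower, and 37.7% of its exon length overlaps other genes. WNT5B fell from 135 ± 4.56 to 68.2 ± 14.4 CPM and RXRG from 3.51 ± 0.402 to 1.59 ± 0.379 CPM. HES3 rose from 22.2 ± 4.46 to 57.5 ± 6.45 CPM, FGF17 from 84.4 ± 6.52 to 153 ± 22.3 CPM and GREB1 from 88.7 ± 6.32 to 157 ± 14.1 CPM. TBXT (Brachyury), which defines the state, was low on both days with 2.6, 2.11 and 2.75 CPM on D2 and 3.32, 2.62 and 3.27 CPM on D3, and was not called (a log2 fold change of 0.31 ± 0.23 SE with an edgeR adjusted p = 0.324). SP5, a Wnt target, went from 386 ± 20.6 to 282 ± 31.3 CPM, a call that was lost without D3 replicate 2.

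The central pluripotency factor was lower on D3, and most other genes of its list were not called. Of 19 tested, 6 fell and 1 rose, against 19.1% and 16.6% of all genes, with a median log2 fold change of -0.24. Without D2 replicate 2 or without D3 replicate 3 the count that rose was 2. POU5F1 (OCT4), the central factor of that network, was at 3.37, 2.51 and 3.19 CPM in the NeuDet-D2 libraries and 0.353, 0.284 and 0.611 CPM in the NeuDet-D3 libraries, a log2 fold change of -2.85 ± 0.27 SE with an edgeR adjusted p = 4.45e-12. ESRG, a noncoding RNA of pluripotent cells, was at 19.6, 17.7 and 18.1 CPM on D2 and 3.32, 2.73 and 3.27 CPM on D3, a log2 fold change of -2.57 ± 0.11 SE with an edgeR adjusted p = 1.00e-22. ZFP42 fell from 8.83 ± 0.563 to 3.12 ± 0.353 CPM and TDGF1, the Nodal co-receptor, from 5.64 ± 0.569 to 1.82 ± 0.257 CPM. NANOG was at most 0.5 CPM in every library and was not called (a log2 fold change of -0.79 ± 0.60 SE with an edgeR adjusted p = 0.329), while L1TD1 rose from 109.6 ± 1.64 to 144 ± 1.5 CPM. LIN28A and DNMT3B, which early progenitors share with stem cells, were not called, at 1325 ± 17 to 1244 ± 35.9 CPM and 186 ± 3.57 to 198 ± 21.2 CPM.

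Neural progenitor genes did not move as a block: 5 of 23 rose and 8 fell, against 16.6% and 19.1% of all genes, with a median log2 fold change of 0.018. SOX2 was at 183, 168 and 201 CPM in the NeuDet-D2 libraries and 236, 219.5 and 193 CPM in the NeuDet-D3 libraries, a log2 fold change of 0.23 ± 0.07 SE with an edgeR adjusted p = 0.00698. The ranges of its libraries overlapped, and the call was lost without D2 replicate 2 and without D3 replicate 1. POU3F2, PROM1 and the neural cadherin CDH2 rose by 0.73, 0.75 and 0.32 on the log2 scale. SOX9, SOX21, SOX3 and HES1 fell by 1.46, 1.01, 0.75 and 0.96. SOX9, which also marks neural crest and glial progenitors, was at 96.4, 88.7 and 85 CPM on D2 and 34.5, 36.9 and 26.4 CPM on D3, a log2 fold change of -1.46 ± 0.11 SE with an edgeR adjusted p = 2.44e-14. PAX6, at 0, 0.185 and 0 CPM on D2 and 0.0353, 0.106 and 0.0719 CPM on D3, was not called (a log2 fold change of 0.16 ± 1.04 SE with an edgeR adjusted p = 0.935).

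Genes that pattern the spinal cord from back to belly were called in both directions. Counts in this paragraph stand beside 16.6% higher and 19.1% lower of all genes tested, and no list was tested against those shares. Of 12 dorsal genes tested, 3 rose and 4 fell, ZIC2 and ZIC5 among the former (0.39 and 0.41) and PAX3 among the latter (-0.35). NKX6-1, of the ventral progenitors, was at 28.5, 26.4 and 21.9 CPM in the NeuDet-D2 libraries and 15.8, 17.3 and 12.9 CPM in the NeuDet-D3 libraries, a log2 fold change of -0.74 ± 0.12 SE with an edgeR adjusted p = 2.55e-06. No D3 library reached any D2 library, as was so for most called genes that fell. Of 18 ventral and intermediate genes, 3 rose and 2 fell, while NKX2-2 had no counts in any of the 6 libraries. Genes of young neurons stayed low: DCX rose from 2.19 ± 0.404 to 3.99 ± 1.22 CPM and INSM1 from 0.25 ± 0.108 to 0.901 ± 0.0845 CPM, STMN2 fell from 4.67 ± 0.3 to 2.82 ± 0.127 CPM, and in all 5 of 23 rose (3 without D3 replicate 1) and 2 fell. Of genes of the brain, 4 of 19 rose and 3 fell, with LMX1B and PAX5 (3.92 ± 0.319 to 7.19 ± 1.14 CPM) among those that rose and EN2 (4.29 ± 0.582 to 2.23 ± 0.252 CPM), IRX1 and IRX2 among those that fell. The IRX1 call was lost without D2 replicate 1, D3 replicate 1 or D3 replicate 3.

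In the Notch pathway, whose receptors are cut by the enzyme that Compound E blocks, the ligand JAG1 and the target HES1 were lower. JAG1 was at 88.8, 86.2 and 84.8 CPM in the NeuDet-D2 libraries and 39.6, 38.7 and 36 CPM in the NeuDet-D3 libraries, a log2 fold change of -1.18 ± 0.078 SE with an edgeR adjusted p = 5.21e-18. HES1 was at 74.4, 64.5 and 79.9 CPM on D2 and 36.1, 35.5 and 40.7 CPM on D3, a log2 fold change of -0.96 ± 0.091 SE with an edgeR adjusted p = 1.51e-12. Both were lower in every D3 library than in any D2 library, a lack of overlap that most called genes showed. DTX1, a modulator of Notch, rose from 5.49 ± 1.27 to 10.7 ± 1.72 CPM, and PSEN2, a subunit of gamma-secretase, from 13.5 ± 0.991 to 19.2 ± 0.695 CPM. In all, 5 of 23 genes tested rose and 6 fell, against 16.6% and 19.1% of all genes. HES5, a direct target in neural progenitors, had no counts in any of the 6 libraries.

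Wnt ligands and receptors were called in both directions. Among ligands, which signal between cells, WNT5A was at 61.7, 70.3 and 70.5 CPM in the NeuDet-D2 libraries and 206, 204 and 157 CPM in the NeuDet-D3 libraries, a log2 fold change of 1.48 ± 0.084 SE with an edgeR adjusted p = 4.07e-20, while WNT5B fell. Of the Frizzled receptors, FZD7 (264 ± 5.28 to 143 ± 7.4 CPM) and FZD9 (20.1 ± 1.81 to 11 ± 0.307 CPM) fell and FZD1 (28.9 ± 2.17 to 46.8 ± 5.02 CPM) rose. In all, 4 of 29 ligands and receptors rose and 8 fell, the latter 5 without D3 replicate 2, against 16.6% and 19.1% of all genes tested. Of 28 targets, feedback genes and TCF/LEF factors, 4 rose and 13 fell, with a median log2 fold change of -0.28. Secreted inhibitors were among those that fell: DKK1 went from 5.57 ± 0.538 to 1.6 ± 0.512 CPM, DKK2 from 3.4 ± 0.503 to 0.724 ± 0.146 CPM and SFRP2 from 254 ± 7.47 to 127 ± 11.4 CPM. RNF43, a ligase that removes Frizzled receptors, was at 40.3, 36.3 and 38.2 CPM on D2 and 13.9, 13.4 and 16.1 CPM on D3, a log2 fold change of -1.40 ± 0.11 SE with an edgeR adjusted p = 2.27e-14, and ZNRF3, of the same kind, fell by 0.51. LGR5, an R-spondin receptor, rose from 0.142 ± 0.125 to 0.901 ± 0.0499 CPM (its log2 fold change was 2.65, and 3.52 without D2 replicate 1) and APCDD1 from 72.1 ± 7.4 to 122 ± 5.33 CPM. AXIN2, LEF1 and NKD1, feedback targets of the pathway, were not called, at 157 ± 6.65 to 155 ± 3.49 CPM, 157 ± 3.74 to 167 ± 1.14 CPM and 306 ± 19.8 to 319.7 ± 18.3 CPM.

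Among FGF ligands and receptors, 4 of 24 rose and 5 fell, shares near the 16.6% and 19.1% of all genes tested. FGF9 (3.88 ± 0.0347 to 9.16 ± 0.749 CPM) and FGF17 rose, FGF18 (3.69 ± 0.214 to 1.41 ± 0.0971 CPM) fell, and so did the receptors FGFR3 (36.4 ± 2.78 to 16.5 ± 1.07 CPM) and FGFR4 (23 ± 1.68 to 10.1 ± 1.59 CPM), while FGFR1, the most abundant receptor in CPM, was not called (714 ± 12.6 to 788 ± 41 CPM). Of 20 feedback and target genes of FGF and ERK signalling, 4 rose and 9 fell. The count that rose was 2 without D3 replicate 1, and the count that fell was 6 without D3 replicate 3. DUSP6, an ERK phosphatase that follows FGF signalling, was not called (307 ± 12.8 to 290.3 ± 20.9 CPM), PHLDA1 fell from 25.6 ± 2.81 to 7.08 ± 1.44 CPM and SPRY4, a feedback inhibitor, from 344 ± 21.2 to 246 ± 20 CPM. Immediate early and AP-1 genes were lower in 12 of 26 and higher in 3, with a median log2 fold change of -0.33. Without D2 replicate 2, without D2 replicate 3 or without D3 replicate 1 none of the 3 was called higher, without D3 replicate 2 there was 1, and 8 fell without D2 replicate 1. JUN was at 21.4, 18.6 and 16.4 CPM on D2 and 6.29, 6.56 and 6.01 CPM on D3, a log2 fold change of -1.58 ± 0.12 SE with an edgeR adjusted p = 9.93e-16. FOSL1 was at 48.1, 38.2 and 44.8 CPM on D2 and 20.6, 15.3 and 18.5 CPM on D3, a log2 fold change of -1.27 ± 0.10 SE with an edgeR adjusted p = 8.59e-15. Neither gene overlapped between the days, as was so for most called genes.

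Hedgehog pathway genes rose together: 11 of 17 tested were higher and 1 (DISP1) lower, with a median log2 fold change of 0.45. PTCH1, the receptor of Hedgehog ligands and itself a target of the pathway, was at 119, 123 and 128 CPM in the NeuDet-D2 libraries and 296, 283 and 229 CPM in the NeuDet-D3 libraries, a log2 fold change of 1.13 ± 0.09 SE with an edgeR adjusted p = 7.91e-14. The transducer SMO rose from 149.8 ± 3.59 to 188 ± 6.81 CPM, and the transcription factors GLI1, GLI2 and GLI3 rose by 0.45, 0.70 and 0.69 on the log2 scale. The co-receptors BOC (0.73) and GAS1 (0.43) and the glypican GPC3 (0.94) rose too. SHH, the ligand, was under 0.3 CPM in every library and was not called (a log2 fold change of -1.28 ± 0.92 SE with an edgeR adjusted p = 0.299). No Hedgehog agonist was in the NeuDet medium.

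Of 18 retinoid genes, 6 rose and 2 fell, against 16.6% and 19.1% of all genes tested. CRABP1, a binding protein of retinoic acid, was at 52.5, 55.5 and 58.8 CPM in the NeuDet-D2 libraries and 123, 142 and 119.9 CPM in the NeuDet-D3 libraries, a log2 fold change of 1.21 ± 0.098 SE with an edgeR adjusted p = 2.57e-13. The CYP26 genes, whose enzymes break retinoic acid down, rose at low levels, CYP26A1 from 0.224 ± 0.187 to 0.711 ± 0.195 CPM (its log2 fold change was 1.63, and 2.56 without D2 replicate 3), CYP26B1 from 0.331 ± 0.097 to 1.54 ± 0.0619 CPM and CYP26C1 from 0.163 ± 0.0369 to 0.604 ± 0.159 CPM. ALDH1A3, an enzyme that makes it, fell from 4.58 ± 0.412 to 1.53 ± 0.375 CPM. Of 34 genes of BMP and TGF-beta signalling, 8 rose (5 without D3 replicate 1) and 11 fell, beside the same shares of all genes. ID3, a target of BMP signalling, was at 503, 448 and 483 CPM on D2 and 210.5, 206 and 213 CPM on D3, a log2 fold change of -1.19 ± 0.076 SE with an edgeR adjusted p = 1.50e-18, and BMP4 fell from 25.3 ± 3.8 to 10.4 ± 0.847 CPM. ID2 rose from 20 ± 2 to 33.7 ± 3.52 CPM and ID1 was not called (39.2 ± 2.56 to 42.9 ± 3.61 CPM). The secreted inhibitors FST and CHRD (17.2 ± 2.27 to 8.62 ± 0.959 CPM) fell, as did the pseudoreceptor BAMBI (8.36 ± 0.891 to 4.55 ± 1.17 CPM), whereas SKIL, a brake on SMAD signalling, rose from 10.4 ± 0.893 to 23.1 ± 0.4 CPM.

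Most epithelial genes were lower on D3. Of 29 genes tested, 19 fell and 3 rose, with a median log2 fold change of -0.84. CDH1 (E-cadherin), the adhesion molecule of epithelia, was at 10.5, 11.6 and 10.9 CPM in the NeuDet-D2 libraries and 3, 4.19 and 3.17 CPM in the NeuDet-D3 libraries, a log2 fold change of -1.67 ± 0.16 SE with an edgeR adjusted p = 1.97e-10. CLDN6, a tight junction claudin of stem cells, was at 144, 131 and 134 CPM on D2 and 51.7, 49.8 and 49.9 CPM on D3, a log2 fold change of -1.44 ± 0.08 SE with an edgeR adjusted p = 1.01e-20. EPCAM was at 32.4, 29.3 and 31.1 CPM on D2 and 12, 12.4 and 15.2 CPM on D3, a log2 fold change of -1.23 ± 0.11 SE with an edgeR adjusted p = 3.49e-12. In all of these, each D3 library was below each D2 library, and most called genes likewise had no overlap. ESRP1, a splicing factor of epithelia, fell from 4.52 ± 0.361 to 1.14 ± 0.138 CPM, and the keratins KRT8, KRT18 and KRT19 fell by 0.57, 0.60 and 1.01 on the log2 scale. CDH2 and CDH11, cadherins of neural and mesenchymal cells, rose by 0.32 and 0.62, while VIM and SNAI2 were not called (605 ± 23.8 to 526 ± 20.2 CPM and 22.3 ± 1.3 to 19.7 ± 2.36 CPM).

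Of 21 neural crest genes tested, 10 fell and 3 rose, with a median log2 fold change of -0.54. For this list and the others of this paragraph, the shares over all genes tested were 19.1% lower and 16.6% higher. NGFR and SOX9 led those that fell, and ERBB3 (25.5 ± 2.6 to 9.35 ± 1.41 CPM), a neuregulin receptor, fell too. The defining factors were near 0, SOX10 at 0.98 ± 0.13 to 0.474 ± 0.0524 CPM and FOXD3 under 0.2 CPM. Matrix genes were split, with 9 of 29 higher and 7 lower, and the count that rose was 5 without D2 replicate 1 or without D3 replicate 1. The fibrillar collagens themselves went opposite ways: COL3A1 and COL5A2 (52.3 ± 4.37 to 95.7 ± 2.14 CPM) rose, while COL1A1 (140.2 ± 4.54 to 83.7 ± 9.79 CPM) and COL1A2 (182 ± 1.8 to 81.3 ± 2.21 CPM) fell. Of 33 axon guidance and Eph genes, 13 rose and 8 fell. SLIT2 fell (314 ± 4.77 to 192 ± 7.75 CPM) where SLIT3 rose, the receptor ROBO1 rose (83.3 ± 5.83 to 128 ± 4.95 CPM), and EPHA4 rose from 90.7 ± 2.9 to 185 ± 22.4 CPM. Of 20 heterochronic and growth genes, 5 rose and 4 fell, IGF2 from 1.65 ± 0.29 to 6.44 ± 0.616 CPM (44.4% of its exon length overlaps other genes) and MYCN from 94 ± 3.57 to 131 ± 12.8 CPM among the former. Without D3 replicate 1 the count that rose was 2, and the count that fell was 0 without D2 replicate 1 and 1 without D2 replicate 2, D3 replicate 2 or D3 replicate 3.

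**Figure D4:**
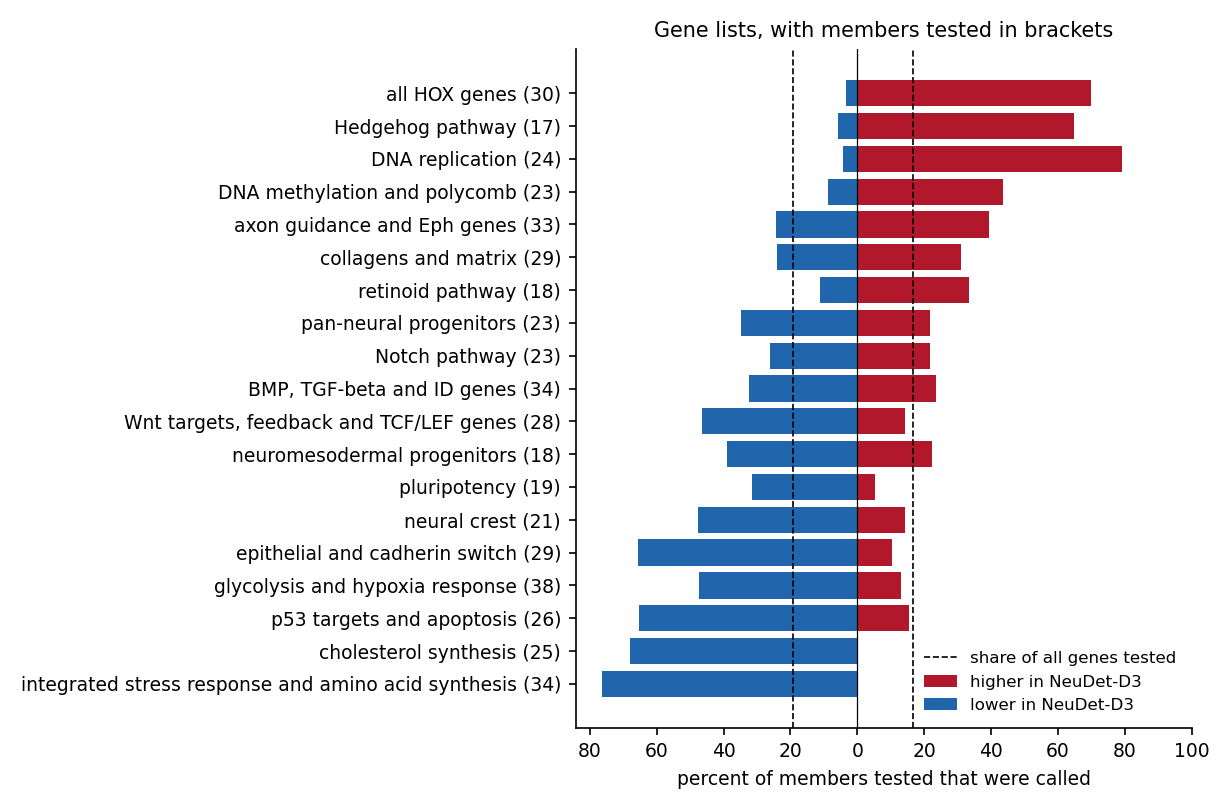
Share of the members tested of 19 gene lists that were called lower (blue, to the left) or higher (red, to the right) on D3, with the number tested in brackets; dashed lines mark the shares of all genes tested, 19.1% lower and 16.6% higher. HOX, DNA replication and Hedgehog genes lean to the right, and stress response, cholesterol, epithelial and p53 genes to the left. Protein-coding genes as a whole were called more often than all genes tested.

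Genes that copy DNA rose together by small amounts. Of 24 tested, 19 were higher and 1 (CDT1, a call lost without D2 replicate 1, D2 replicate 3, D3 replicate 2 or D3 replicate 3) lower, with a median log2 fold change of 0.36. MCM2, a subunit of the replicative helicase, was at 189, 202 and 191 CPM in the NeuDet-D2 libraries and 316, 303 and 289 CPM in the NeuDet-D3 libraries, a log2 fold change of 0.64 ± 0.099 SE with an edgeR adjusted p = 1.68e-06. POLA1, the catalytic subunit of the polymerase that primes DNA synthesis, was at 107, 119 and 107 CPM on D2 and 171, 171 and 164 CPM on D3, a log2 fold change of 0.60 ± 0.078 SE with an edgeR adjusted p = 1.15e-08. The days did not overlap in either gene, as was so for most called genes. Of 22 mitosis genes, 2 were higher and 4 lower, against 16.6% and 19.1% of all genes tested, with a median of -0.072. MKI67 was not called (444 ± 17.9 to 509 ± 77.6 CPM).

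Of 10 genes of D cyclins and CDK inhibitors, which set how easily cells enter the cycle, none rose by edgeR's test, by DESeq2 or at an unadjusted p under 0.05 (0 each), and 6 fell. CCND1, CCND2 and CCND3 fell by 0.40, 0.56 and 0.78 on the log2 scale, and CDKN1A (p21), an inhibitor induced by p53, was at 216, 192 and 216 CPM in the NeuDet-D2 libraries and 121, 124 and 116 CPM in the NeuDet-D3 libraries, a log2 fold change of -0.79 ± 0.079 SE with an edgeR adjusted p = 1.15e-11. Other p53 targets were lower as well: of 26 genes of p53 and apoptosis, 17 fell and 4 rose, with a median log2 fold change of -0.27. GADD45A, a damage-induced gene, was at 109, 100.4 and 104 CPM on D2 and 48.6, 52.8 and 57.1 CPM on D3, a log2 fold change of -0.99 ± 0.08 SE with an edgeR adjusted p = 1.11e-14. GDF15, a secreted stress factor, fell from 58.1 ± 6.02 to 20 ± 2.51 CPM, BTG2 from 129 ± 9.33 to 67.7 ± 4.96 CPM and BAX, which permeabilises mitochondria in apoptosis, from 256 ± 24.4 to 172 ± 12.8 CPM. BCL2, which opposes BAX, rose from 12.3 ± 1.13 to 17.2 ± 0.406 CPM, and MDM2, the p53 ligase and target, was not called (94.6 ± 2.08 to 97 ± 3.23 CPM).

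Most genes of the integrated stress response and amino acid supply were lower, the set that ATF4 switches on when translation is throttled or amino acids run short. Of 34 tested, 26 fell and 0 rose by edgeR's test (2 were higher at an unadjusted p under 0.05 and 0 by DESeq2), with a median log2 fold change of -0.52. Several of these promoters hold the letters of the C/EBP-ATF response element, TGATGNAA, to which ATF4 binds with a C/EBP partner. On either strand, these letters occur in the 250 bases before the start of 7 of 29 members with a promoter in RefSeq, and in 1.88% of the 19491 promoters of genes tested. As the list holds genes of the ATF4 response, a larger share among its members can follow from that choice. Whether a match went with a fall was not tested. The windows of ASNS (chr7:97872409-97872658, minus strand) and CHAC1 (chr15:40953221-40953470, plus strand) are shown with the match in capitals, in GRCh38.p14 and 5′ to 3′ along the gene, because both hold a match, while ASNS fell and CHAC1 was not called in the fit of all libraries.
ASNS: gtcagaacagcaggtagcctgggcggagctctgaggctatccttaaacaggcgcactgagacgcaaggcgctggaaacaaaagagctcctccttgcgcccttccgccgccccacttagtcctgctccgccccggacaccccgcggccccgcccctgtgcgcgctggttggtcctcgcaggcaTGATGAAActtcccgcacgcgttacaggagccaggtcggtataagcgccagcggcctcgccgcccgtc
CHAC1: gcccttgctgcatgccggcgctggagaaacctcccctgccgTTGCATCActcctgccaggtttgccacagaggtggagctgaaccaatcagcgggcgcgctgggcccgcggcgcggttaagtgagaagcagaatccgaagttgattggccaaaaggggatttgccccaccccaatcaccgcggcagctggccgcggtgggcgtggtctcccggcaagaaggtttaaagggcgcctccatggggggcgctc
A match is a string of letters and not a bound site. It begins 68 bases before the start of ASNS and 209 bases before that of CHAC1, where it lies on the opposite strand.

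ASNS, asparagine synthetase, was at 10.8, 10 and 8.72 CPM in the NeuDet-D2 libraries and 4.42, 5.43 and 4.82 CPM in the NeuDet-D3 libraries, a log2 fold change of -1.01 ± 0.14 SE with an edgeR adjusted p = 7.21e-08. TRIB3, a pseudokinase induced by ATF4, was at 23.7, 25.3 and 23 CPM on D2 and 10.6, 9.54 and 10.4 CPM on D3, a log2 fold change of -1.24 ± 0.12 SE with an edgeR adjusted p = 6.47e-12. AARS1, alanyl-tRNA synthetase, was at 393, 356 and 379 CPM on D2 and 202, 197 and 226 CPM on D3, a log2 fold change of -0.85 ± 0.069 SE with an edgeR adjusted p = 9.04e-15. All D3 libraries were below all D2 libraries in each, and most called genes likewise had no overlap. The enzymes of serine synthesis and of mitochondrial folate use, PHGDH, PSAT1, SHMT2 and MTHFD2, fell by 0.41, 0.31, 0.54 and 0.54 on the log2 scale. The transporters SLC7A11, SLC7A5 and SLC3A2 fell by 0.83, 0.67 and 0.46. ATF4 itself, which is controlled mainly by translation, was not called (547 ± 29.3 to 575 ± 31.9 CPM), nor were CHAC1 (29.8 ± 3.13 to 25.2 ± 2.9 CPM), DDIT3 (5.85 ± 1.19 to 7.38 ± 0.977 CPM) and ATF3 (30.6 ± 3.1 to 29.6 ± 1.52 CPM). CHAC1 was called lower without D2 replicate 2 or without D3 replicate 3, and DDIT3 higher without D2 replicate 1 or without D3 replicate 1. With the replicate block and D2 and D3 fitted alone, CHAC1 was also called lower and DDIT3 higher, and CHAC1 was called lower with no filter on low counts. The genes of the list were already lower on D2 than on D1, where 30 of the 34 were called lower (13.2% of all genes), and 10 were called lower between D3 and D4 (11.8% of all genes), comparisons that share the D2 and the D3 libraries.

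Genes of cholesterol synthesis and uptake, which SREBP factors drive, were lower in 17 of 25 and higher in 0 by edgeR's test (0 also at an unadjusted p under 0.05 and by DESeq2), with a median log2 fold change of -0.35. MSMO1, a sterol oxidase, was at 153, 155 and 141 CPM in the NeuDet-D2 libraries and 66, 71 and 57.4 CPM in the NeuDet-D3 libraries, a log2 fold change of -1.21 ± 0.072 SE with an edgeR adjusted p = 1.14e-19. INSIG1, which holds SREBP back, fell from 78.2 ± 4.59 to 47.6 ± 3.21 CPM. Between D3 and D4, which shares the D3 libraries, 13 of the 25 were called higher (12.6% of all genes). Of 12 fatty acid genes, 10 fell, by small amounts (median -0.22), and 0 rose by edgeR, at an unadjusted p under 0.05 or by DESeq2 (1 by edgeR without D2 replicate 1). That count of 10 was 5 without D3 replicate 2, and 6 without D2 replicate 2 or without D3 replicate 3.

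In glucose use and the hypoxia response, 18 of 38 genes fell and 5 rose. SLC2A3, a glucose transporter, had among the largest falls in absolute CPM of any nuclear gene, at 1976, 1901 and 1832 CPM in the NeuDet-D2 libraries and 1063, 1068 and 954 CPM in the NeuDet-D3 libraries, a log2 fold change of -0.89 ± 0.055 SE with an edgeR adjusted p = 6.49e-19. ENO2, the neuronal enolase, fell from 82.7 ± 6.48 to 30.6 ± 5.87 CPM and ADM, adrenomedullin, from 21.7 ± 1.85 to 7.32 ± 0.466 CPM. PFKFB3, a switch of glycolysis, rose from 35.7 ± 1.88 to 63.3 ± 3.98 CPM, and PGK1, a core glycolytic enzyme, was not called (371 ± 12.1 to 349.7 ± 18.1 CPM). Of 12 heat shock genes, 7 fell and 0 rose by edgeR's test (0 at an unadjusted p under 0.05 and 0 by DESeq2). HSPA8, a constitutive chaperone, was at 1686, 1711 and 1687 CPM on D2 and 1047, 1042 and 998 CPM on D3, a log2 fold change of -0.72 ± 0.057 SE with an edgeR adjusted p = 5.18e-15, and DNAJB1 fell from 167 ± 6.38 to 88.6 ± 5.76 CPM. In the unfolded protein response, 9 of 18 fell and 0 rose by edgeR, at an unadjusted p under 0.05 or by DESeq2; HSPA5, the chaperone of the endoplasmic reticulum, fell by 0.21 and XBP1 by 0.57. The count of 9 was 6 without D2 replicate 1.

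Genes of DNA methylation and polycomb complexes leaned upward, with 10 of 23 higher and 2 lower and a median log2 fold change of 0.12. The count that fell was 1 without D2 replicate 1 or without D2 replicate 3. TET2 and TET3, which oxidise methylcytosine, both rose by 0.69, EZH2, the polycomb methyltransferase, by 0.37 and CBX2, a polycomb reader, by 0.43. Of the 13 mitochondrially encoded genes, 7 were called higher, led by MT-ND1 (3911 ± 403 to 5683 ± 1239 CPM). That count was 3 without D3 replicate 1, the library with the largest mitochondrial share (6.86%), 4 without D2 replicate 2, the library with the smallest (4.83%), and 2 when D2 and D3 were fitted alone.

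By absolute change of the mean CPM, the nuclear genes that rose most were SFPQ, ODC1, DDX3X, NCL and HNRNPU, and those that fell most were EEF1A1, ACTB, SLC2A3, HSPA8 and RPS2. SFPQ, a nuclear RNA-binding protein, was at 564, 587 and 583 CPM in the NeuDet-D2 libraries and 1109, 1079 and 1069 CPM in the NeuDet-D3 libraries, a log2 fold change of 0.91 ± 0.057 SE with an edgeR adjusted p = 9.50e-19. ODC1, the rate-limiting enzyme of polyamine synthesis, was at 615, 647 and 655 CPM on D2 and 889, 939.7 and 1013 CPM on D3, a log2 fold change of 0.57 ± 0.073 SE with an edgeR adjusted p = 8.85e-09. DDX3X, an RNA helicase, was at 494, 535 and 477 CPM on D2 and 801, 799 and 768 CPM on D3, a log2 fold change of 0.65 ± 0.056 SE with an edgeR adjusted p = 5.39e-14. All 3 were higher in every D3 library, and most called genes likewise had no overlap. NCL, nucleolin, and HNRNPU, a nuclear scaffold protein, rose by 0.34 and 0.34 on the log2 scale. EEF1A1, the elongation factor, ACTB, an actin, and RPS2, a ribosomal protein, fell by only 0.20, 0.29 and 0.25 on that scale, and the EEF1A1 call was lost without D3 replicate 1.

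To see what was particular to this day, the change from D2 to D3 was tested against the mean of the changes from D1 to D2 and from D3 to D4. Those steps share the D2 or the D3 libraries. In this test, 5133 of 21597 genes were called (23.8%), 2366 (11%) with a change above that of the neighbouring steps and 2767 (12.8%) with a change below. Among protein-coding genes called in this test with at least 5 CPM on D2 or D3, those that stood highest were the metallothioneins MT1E, MT1F and MT2A, HDC and SGPP2. Those that stood lowest were KIFC1, ANKRD63, CD70, HSPA2 and EML2. Metallothioneins are small proteins that bind zinc and copper and are induced by metals. MT2A was at 31.4, 25 and 22 CPM in the NeuDet-D2 libraries and 86.2, 86.6 and 108 CPM in the NeuDet-D3 libraries, a log2 fold change of 1.84 ± 0.27 SE with an edgeR adjusted p = 1.28e-06. MT1E was at 0.761, 1.41 and 0.99 CPM on D2 and 4.59, 6.67 and 8.52 CPM on D3, a log2 fold change of 2.64 ± 0.41 SE with an edgeR adjusted p = 9.93e-06. MT1F was at 1.64, 1.92 and 1.17 CPM on D2 and 5.93, 8.73 and 7.66 CPM on D3, a log2 fold change of 2.23 ± 0.29 SE with an edgeR adjusted p = 6.35e-08. These 3 fell from D1 to D2 and again from D3 to D4, so that D3 stood out as a peak: MT2A had means of 52.6, 26.1, 93.6 and 17.9 CPM on D1, D2, D3 and D4. Metallothionein genes are near-identical copies in a row on chromosome 16, and reads can be split between them.

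The promoter of MT2A (chr16:56608334-56608583, plus strand) is shown for the core letters of the metal response element, TGCACNC or TGCGCNC, in capitals on either strand.
MT2A: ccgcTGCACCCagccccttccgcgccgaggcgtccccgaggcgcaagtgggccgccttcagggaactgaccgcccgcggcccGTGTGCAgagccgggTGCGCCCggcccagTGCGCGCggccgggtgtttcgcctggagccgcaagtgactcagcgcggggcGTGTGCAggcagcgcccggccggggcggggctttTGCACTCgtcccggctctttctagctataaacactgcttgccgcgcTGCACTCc
This window holds 7 matches, none overlapping another. At least 1 match stood in 31% of the promoters of genes tested, and 4 or more in 0.457%. RefSeq promoters were at hand for 3 of the 7 metallothioneins tested, and all 3 held a match.

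HDC was called higher from D2 to D3 and not from D1 to D2 or from D3 to D4, with means of 0.22, 0.4, 6.68 and 6.83 CPM on the 4 days. SGPP2 peaked on D3, with 1.73, 7.52 and 5.32 CPM on D2, D3 and D4. CD70, a TNF family ligand, and HSPA2, a chaperone, had risen from D1 to D2 before they fell (15.5 ± 2.38 to 5.31 ± 0.783 CPM and 14.3 ± 1.44 to 4.13 ± 0.26 CPM from D2 to D3). EML2, a microtubule-binding protein, fell from 22.4 ± 2.03 to 6.23 ± 0.81 CPM. KIFC1, a kinesin of the spindle, rested on a single library: it was at 0.681, 20.1 and 0.99 CPM on D2 and 0.812, 1.03 and 0.539 CPM on D3, and without D2 replicate 2 its log2 fold change from D2 to D3 was -0.083 (edgeR adjusted p = 0.964).

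**Figure D5:**
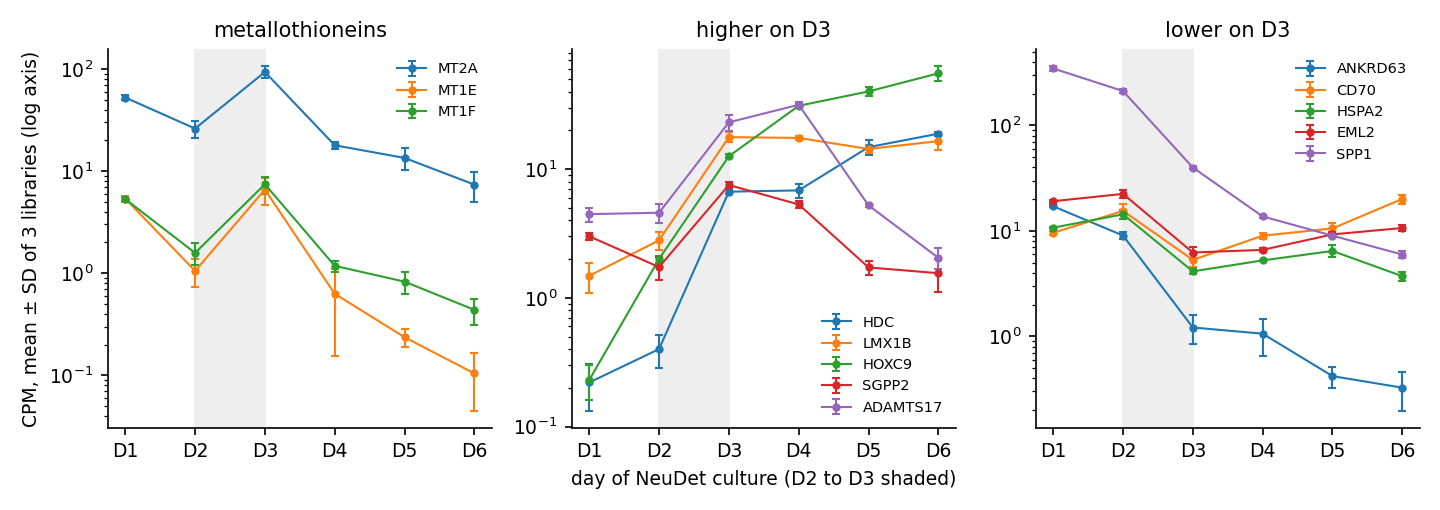
Mean CPM ± SD of 3 libraries on a log axis on each day of NeuDet culture, D1 to D6, for 3 metallothioneins (left), 5 genes that rose from D2 to D3 (middle) and 5 that fell (right); the grey band is the step from D2 to D3. The metallothioneins peak on D3, ADAMTS17 and SGPP2 rise and later fall, and SPP1 and ANKRD63 fall through the whole step.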

How the data were processed

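RNA of H9 cells was sequenced in 3 libraries of NeuDet-D2 and 3 of NeuDet-D3. For the hg38 genome the authors used HISAT2 2.1.0 as aligner and featureCounts 1.5.3 with a GENCODE annotation as counter. The deposited values are raw counts per gene for 60603 identifiers, of which 60261 have a symbol in GENCODE v44. The release and the strand setting are not given in the sources used here, so that overlapping and near-identical genes may share reads. All 48 libraries of the table were fitted in 1 model with a coefficient per group (edgeR 4.0.16, R 4.3.3, filterByExpr, TMM, robust quasi-likelihood F test), and p-values were adjusted by Benjamini-Hochberg over 21597 genes at a threshold of 0.05. Each SE was taken as the absolute log2 fold change divided by the root of its F value. No test for changed genes is stated in the study's methods. Scripts were tested on simulated data. Alternatives used DESeq2 1.42.0 and the settings named in the closing section.

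Genes were named by rules: the 15 largest changes in each direction among called protein-coding genes with non-overlapping libraries and at least 5 CPM in each library of the higher group, up to 4 called members of a list in each direction with uncalled defining members, genes that the study follows, and the 5 in each direction farthest from the neighbouring steps or largest in absolute CPM. The 42 lists were described by counts and medians, and beyond 4 members a few were named by what they do. Members and lists were chosen with earlier results of these data known. Promoters are from RefSeq (GRCh38.p14). The second count table, of motor neurons, was not used here. Some genes are not reported here.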

Additional observations from a re-analysis of the deposited data

Results flagged for a closer look

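Of the 10 genes whose change from D2 to D3 stood farthest from the neighbouring steps, 7 were picked out because they were called in one direction from D2 to D3 and in the opposite direction in a called step next to it. The difference itself was tested, as the log2 change from D2 to D3 minus the mean of the log2 changes from D1 to D2 and from D3 to D4. Because the genes were chosen by this same difference among those called for it, its p-values add no support. Both neighbouring steps share the D2 or the D3 libraries, so that 1 odd library can move adjoining steps in opposite directions. It was 5.49 ± 0.65 SE (edgeR adjusted p = 5.33e-07) for MT1E, 4.43 ± 0.46 SE (edgeR adjusted p = 2.32e-09) for MT1F and 3.54 ± 0.43 SE (edgeR adjusted p = 1.65e-07) for MT2A, the metallothioneins. For SGPP2 it was 2.75 ± 0.26 SE (edgeR adjusted p = 1.26e-11). On the other side it was -2.27 ± 0.22 SE (edgeR adjusted p = 3.38e-11) for CD70 and -2.18 ± 0.27 SE (edgeR adjusted p = 1.04e-07) for HSPA2. KIFC1 had -4.70 ± 1.42 SE (edgeR adjusted p = 0.0142), but 1 library, D2 replicate 2 with 20.1 CPM, stood apart from the 0.539 to 1.03 CPM of the other 5, and without it the log2 fold change from D2 to D3 was -0.083 (edgeR adjusted p = 0.964).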

How the results depend on the processing

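The main counts were 3581 higher, 4123 lower and 5133 genes that differed from the neighbouring steps. They stayed within 1.5 times under DESeq2, RLE scaling, a 1 CPM minimum, all counted genes kept, fits of the 18 NeuDet libraries or of D2 and D3 alone, and the replicate block. Against a 1.5-fold change (glmTreat), a stricter question by construction, they were 369, 580 and 464. Leaving out 1 library at a time gave 2779 to 3274 higher, 3428 to 3923 lower and 3643 to 4910 differing genes. The test against the neighbouring steps cannot be had from D2 and D3 alone.

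The replicate numbers showed at most a weak pairing. Same-numbered libraries of D2 and D3 had deviations from their group means that correlated at 0.0252, 0.107 and 0.108 over 14831 genes. Libraries of unlike number correlated at -0.114 to 0.0028, so that every library correlated best with its own number. The fit with the replicate number as a block called 3563 higher, 4099 lower and 5093 differing genes. With D2 and D3 fitted alone it called 4240 higher and 4490 lower, where the fit without the block called 3903 and 4111.

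Of 238 genes given with a change or a call, 225 had a value under every alternative, and 211 of these kept their direction and their side of the threshold under all but glmTreat. The other 13 were not fitted under some alternatives. FGFR1 and VIM, which were not called, passed the threshold when D2 and D3 were fitted alone. Some genes that were not called changed sign when 1 library was left out, where their log2 fold changes ran from -0.41 to 3.87 for PAX6, from -0.06 to 0.001 for AXIN2 and from -0.11 to 0.03 for ATF3. With 24852173 to 28217862 counts a library, genes at a small fraction of 1 CPM rest on few counts.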

Other observations

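The gene families in the next sentences were picked after their values had been seen, so that they are given as values only. All 7 metallothioneins tested were called higher on D3, with a median log2 fold change of 2.63. Beyond those named above, MT1G went from 0.263 ± 0.0664 to 2.8 ± 1.35 CPM, MT1H from 0.138 ± 0.0156 to 1.89 ± 0.896 CPM, MT1M from 0.163 ± 0.0831 to 1.33 ± 0.857 CPM (a log2 fold change of 2.98, and 2.33 without D3 replicate 3) and MT1X from 0.784 ± 0.107 to 2.03 ± 0.301 CPM. All 7 were also called lower from D1 to D2 and from D3 to D4, comparisons that share the D2 and the D3 libraries.

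Of 32 SRSF and HNRNP genes, which encode splicing factors and RNA-binding proteins of the nucleus, 19 were higher and 2 lower (1 without D2 replicate 1, D3 replicate 1 or D3 replicate 3), with a median log2 fold change of 0.18. SRSF6 was at 109, 130.1 and 111 CPM in the NeuDet-D2 libraries and 284, 268 and 294 CPM in the NeuDet-D3 libraries, a log2 fold change of 1.27 ± 0.068 SE with an edgeR adjusted p = 2.13e-21. SRSF5 went from 234 ± 16.1 to 398 ± 31.8 CPM. Of 59 nuclear genes for NDUF, COX and UQCR subunits of the respiratory chain, 27 were lower (15 without D3 replicate 2) and 0 higher by edgeR's test (0 at an unadjusted p under 0.05 and 0 by DESeq2), with a median of -0.19, whereas no mitochondrially encoded gene was called lower (0 by edgeR, at an unadjusted p under 0.05 and by DESeq2). Of 77 ribosomal protein genes, 29 were lower and 1 higher, and the count of lower genes was 13 without D2 replicate 1, 11 without D2 replicate 3, 15 without D3 replicate 1 and 11 without D3 replicate 2.

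Among 19 genes of the TNF receptor family, 13 were lower and 2 higher (1 without D3 replicate 2 or without D3 replicate 3), with a median of -0.71. TNFRSF12A went from 53.4 ± 6.13 to 19.2 ± 1.59 CPM, TNFRSF11B from 32.6 ± 4.82 to 9.64 ± 0.959 CPM and TNFRSF1A from 79.4 ± 3.92 to 38.7 ± 0.758 CPM. Of 24 SOCS, STAT and IRF genes of cytokine signalling, 15 were lower and 1 higher, with IRF2 from 10.2 ± 0.944 to 4.22 ± 0.424 CPM. Of 6 caveolar genes, 3 were lower and 1 higher: CAV1 went from 20.2 ± 2.38 to 5.26 ± 0.732 CPM, CAVIN1 from 65 ± 1.53 to 19 ± 1.65 CPM, CAV2 from 1 ± 0.211 to 0.284 ± 0.126 CPM and CAVIN4, the higher one, from 9.5 ± 0.321 to 13.5 ± 0.57 CPM.

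Lists of other cell types are set beside the 16.6% of all genes tested that were higher and the 19.1% that were lower. In blood and endothelium, 1 of 10 genes tested was higher and 2 were lower (KDR from 3.53 ± 0.488 to 1.32 ± 0.46 CPM and FLT1, another VEGF receptor, from 7.7 ± 0.499 to 3.64 ± 0.764 CPM). In endoderm, 1 of 14 was higher (CXCR4, from 8.41 ± 0.461 to 19.4 ± 1.14 CPM) and 1 lower (FOXA3, from 5.81 ± 1.15 to 1.64 ± 0.692 CPM), and the count of higher genes was 2 without D3 replicate 3. In surface ectoderm and amnion, 1 of 14 was lower (GRHL3, from 13.5 ± 1.22 to 8.36 ± 0.712 CPM; 2 without D2 replicate 2 or without D3 replicate 2) and 0 higher by edgeR and by DESeq2 (1 at an unadjusted p under 0.05). Of 19 mesoderm genes, 4 were higher (2 without D2 replicate 1) and 4 lower, among the latter TCF15 from 4.62 ± 1.05 to 2.02 ± 0.284 CPM and TWIST1 from 7.6 ± 0.679 to 4.15 ± 0.186 CPM.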
